A study of Mus musculus with 16 samples.

Results

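Expression of 9 genes of the epithelial matrix-adhesion machinery was followed: the integrin alpha subunits Itga2, Itga3, Itga6 and Itgav, the beta subunits Itgb1, Itgb4 and Itgb6, and the laminin-332 chains Lama3 and Lamb3. They were picked by name, and all 9 were found among the 22396 gene symbols with a value. Integrins are alpha/beta heterodimers that bind extracellular matrix outside the cell and the cytoskeleton inside. In gut epithelium, alpha-6/beta-4 anchors cells to laminin-332 in hemidesmosome-like contacts, alpha-3/beta-1 also binds laminins, alpha-2/beta-1 binds collagen and laminin, and alpha-v/beta-6 binds fibronectin and releases active TGF-beta from its latent form. Laminin-332 is a trimer that holds the chains encoded by Lama3 and Lamb3, and migrating epithelial cells at a wound edge are known for depositing it.

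The study asked how loss of tumor necrosis factor receptor 2 (TNFR2, gene Tnfrsf1b) in colonic epithelium alters the response to dextran sulfate sodium (DSS), a polymer that injures the colon when given in drinking water. EpCAM+ cells, a gate for epithelium, were sorted from the distal colon of adult mice and profiled by RNA-seq. All mice carried loxP-flanked Tnfr2 alleles (Tnfr2-f/f), and the knockout genotype (Vil1::Cre;Tnfr2-f/f) added a Cre recombinase driven by the Vil1 promoter in intestinal epithelium. The 16 mice formed 4 groups: 4 controls and 5 knockout-labelled mice given water, and 3 controls and 4 knockout-labelled mice given 3% DSS for 6 days, dissected 12 days after the start of treatment by the labels. The study's own text names a slightly higher DSS concentration and describes the DSS cells as taken from injured regions and the water mice as uninjured. It dates the uninjured mice to the start of the experiment, whereas the labels give all mice the same dissection day. The labels were used here. The labels name 2 cages per treatment, none shared between treatments. The DSS mice were all female, while 4 of the 9 water mice were male, and same-numbered mice of different groups are different animals.

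Values are TPM, the share of a library's transcripts corrected for transcript length. Only principal transcripts are listed, so a gene's sum can miss other isoforms, and levels of different genes are compared for their listed transcripts only. The water and DSS mice were quantified and scaled in separate tables, and read numbers per mouse are not in the tables. One median-of-ratios factor per mouse, between 0.905 and 0.940 in water and between 1.13 and 1.24 after DSS, was therefore used wherever levels are set across treatments. Those differences carry no test, and treatment cannot be told apart from table, cage, the choice of injured regions or, in part, sex. The 12 epithelial markers summed to between 5188 and 8581 TPM in every mouse. The 17 leukocyte markers summed to between 790 and 1567 TPM in water and between 21.9 and 52.4 TPM after DSS, where 11 of them were below 1 TPM in every control and Cd8a and Cd2 were listed at 0. Fibroblast markers ranged from 268 to 914 TPM in water and from 123 to 614 TPM after DSS, and plasma cell markers from 661 to 14754 and from 204 to 683 TPM. Endothelial markers stayed at or below 24.9 TPM and smooth muscle markers at or below 52.4 TPM in every mouse. Tnfrsf1b itself was not lower in the knockout-labelled mice beyond the spread: it averaged 13.9 ± 2.06 (SD, n = 4) TPM in water controls and 11.8 ± 2.30 (n = 5) in water knockout-labelled mice (exact two-sided permutation p = 0.198), and 16.5 ± 4.95 (n = 3) against 18.4 ± 6.02 (n = 4) after DSS (exact permutation p = 0.629). Transcript-level TPM do not resolve a single deleted exon, so the genotype below is that of the labels. The study reports less TNFR2 protein by flow cytometry, and a similar result by qPCR, in EpCAM+ cells of the knockout genotype.

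**Figure D1:**
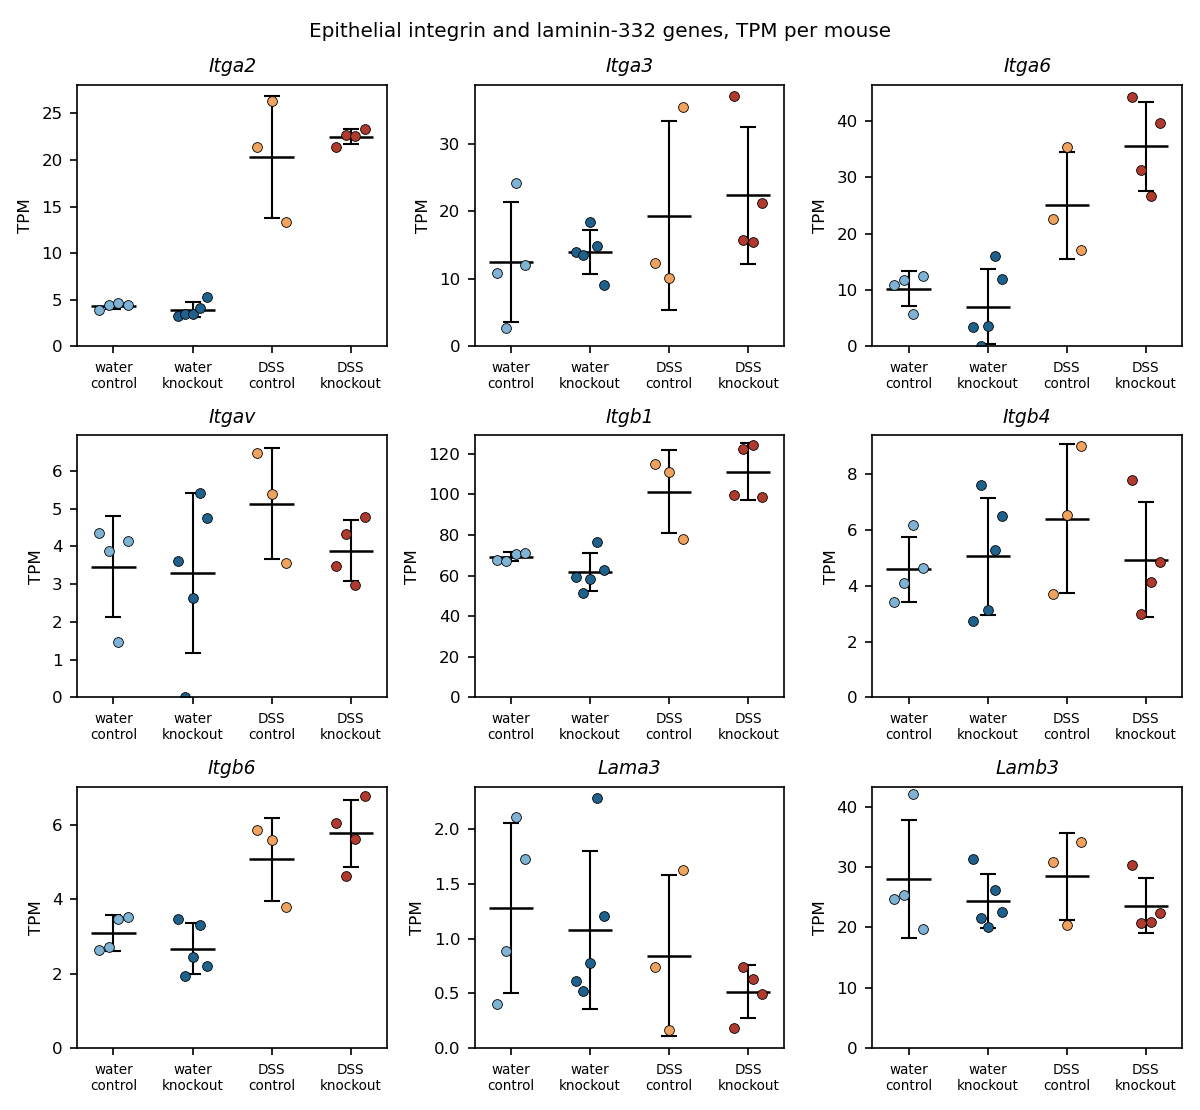
TPM (vertical axis, linear, from 0) of each of the 9 genes in the 4 groups, 1 point per mouse, with the group mean and SD as lines. Itga2 sits between 3.29 and 5.26 TPM in every water mouse and between 13.3 and 26.3 TPM in every DSS mouse, while Lamb3 and Itgb4 overlap across all groups.

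On the rescaled values, Itga2 and Itga6 were the members whose levels after DSS lay above all water mice of the same genotype, in controls and in knockout-labelled mice alike. Itgb6, and on some scales Itgb1, followed in the knockout-labelled mice. The laminin chain Lamb3 and the 1 listed transcript of Lama3 did not share this pattern, and no member tested passed the genotype test in either treatment. On the rescaled values, 2 of the 8 members with a mean of at least 1 TPM were higher without overlap in DSS controls than in water controls, where 10.7% of the 11247 genes measured at that level were. Itga2 and Itga6 were those 2. None was lower, against 13.9% of all genes. In knockout-labelled mice 3 of 8 were higher, against 17.4% of all genes, and none was lower, against 17.8%. The median difference over the 8 members was 0.25 (log2) in controls and 0.36 in knockout-labelled mice, with medians over all genes of 0.02 and 0.00. The members named here were the same when only female mice were compared. With 8 genes these counts describe the members and do not set them apart from other genes. In RNA from bulk sorted cells, a smaller number of cells of a type and less RNA per cell cannot be told apart.

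Itga2 encodes the alpha-2 subunit, the collagen-binding partner of beta-1, and lies at chr13:114833081-114932100 on the minus strand (GRCm38). It was read from 1 listed transcript, Itga2-201, of which 94.0% of the 31-base windows occur in no other transcript of the gene. In water controls it measured 3.87, 4.48, 4.63 and 4.46 TPM, and in water knockout-labelled mice 3.29, 3.52, 3.50, 4.08 and 5.26 TPM. After DSS it measured 21.4, 26.3 and 13.3 TPM in controls and 21.4, 22.6, 22.6 and 23.3 TPM in knockout-labelled mice. The lowest DSS mouse, control 3, still lay above the highest water mouse. On the rescaled log2(TPM + 1) scale the DSS mean exceeded the water mean by 1.62 ± 0.32 (SE) in controls and by 1.94 ± 0.11 in knockout-labelled mice. Only 0.827% of all genes had a larger difference in controls, and 0.596% in knockout-labelled mice. The rank of Itga2 within its own library, which needs no scaling, went from a median percentile of 36.2 to 74.9 in controls and from 31.3 to 75.8 in knockout-labelled mice. Leaving out any 1 mouse gave differences between 1.40 and 1.92 in controls and between 1.89 and 2.03 in knockout-labelled mice.

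The promoters of Itga2, which had the most separated levels among the members, and of Itgb1, which encodes its partner, are shown from 250 bases before to 50 bases after the RefSeq start (GRCm38.p6). RefSeq promoter windows were matched for 6 of the 9 members. Capitals mark matches, on either strand, to an AP-1 site (TGANTCA), a TEAD site (GGAATG), a GC box (GGGCGG) or a kappaB site. The Itga2 window at chr13:114932051-114932350 (minus strand) reads:
Itga2: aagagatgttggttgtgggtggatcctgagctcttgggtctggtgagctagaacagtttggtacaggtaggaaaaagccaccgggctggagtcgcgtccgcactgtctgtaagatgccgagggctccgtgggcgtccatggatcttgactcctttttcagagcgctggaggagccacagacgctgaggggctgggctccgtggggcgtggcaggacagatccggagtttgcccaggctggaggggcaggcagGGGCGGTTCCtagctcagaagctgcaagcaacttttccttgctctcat
The Itgb1 window at chr8:128685404-128685703 (plus strand) reads:
Itgb1: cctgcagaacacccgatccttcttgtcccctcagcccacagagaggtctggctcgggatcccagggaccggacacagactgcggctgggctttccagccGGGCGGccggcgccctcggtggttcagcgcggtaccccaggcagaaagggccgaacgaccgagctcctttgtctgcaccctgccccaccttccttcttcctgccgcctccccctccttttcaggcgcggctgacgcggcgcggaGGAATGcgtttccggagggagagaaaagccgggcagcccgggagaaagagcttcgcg
Among 32851 promoter windows of the same length, 7.81% hold the AP-1 letters, 14.7% the TEAD letters, 35.7% a GC box and 26.8% a kappaB match. The Itga2 window holds 1 GC box that lies inside its 1 kappaB match, starting at base 3 of the transcript. The Itgb1 window holds 1 GC box and 1 TEAD match. The 2 Itgb6 windows hold none of these letters. A match is a description of the letters and not a site in use.

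Itga6, whose product pairs with beta-4 in hemidesmosomes and with beta-1 elsewhere, lies at chr2:71745616-71858416 (plus strand). It measured 10.8, 11.8, 5.75 and 12.5 TPM in water controls, and 3.50, 0.00, 3.64, 16.0 and 12.0 TPM in water knockout-labelled mice. After DSS it measured 22.5, 35.4 and 17.04 TPM in controls and 44.2, 31.3, 26.7 and 39.6 TPM in knockout-labelled mice. After rescaling, the lowest DSS control stood at 13.74 TPM and the highest water control at 13.65 TPM, so these groups were only just apart, and the same DSS control lay below water knockout 4 at 17.7 TPM. The lowest DSS knockout-labelled mouse stood at 22.6 TPM on that scale. The rescaled difference was 0.87 ± 0.40 (SE) in controls and 2.41 ± 0.76 in knockout-labelled mice, with 5.13% and 0.276% of all genes above it. The value for knockout-labelled mice fell to 1.78 without water knockout 2, which was near 0, and scaling by epithelial markers brought the control groups of Itga6 into overlap. The listed transcript, Itga6-201, shares nearly all of its sequence with other Itga6 transcripts, since 0.678% of its windows are its own, and Itga6 had a coefficient of variation of up to 95.1% within a group.

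Itga3, the alpha-3 subunit of a laminin receptor with beta-1, lies at chr11:95044474-95076801 (minus strand). Its TPM were 10.8, 2.68, 24.2 and 12.1 in water controls and 14.0, 13.5, 18.4, 14.9 and 9.11 in water knockout-labelled mice. After DSS they were 12.4, 10.2 and 35.5 in controls and 37.1, 15.8, 15.4 and 21.2 in knockout-labelled mice. The groups overlapped throughout, and the DSS minus water differences of 0.36 ± 0.76 (SE) in controls and 0.24 ± 0.32 in knockout-labelled mice were within the spread. The 2 highest values after DSS, control 3 and knockout 1, came from the same cage, and the other 5 DSS mice shared the other cage. Itga3 and Itgb4 did not overlap between the DSS cages, and neither did 25.6% of all genes tested there. In water no member separated the cages, against 1.79% of genes. The DSS cages held 2 and 5 mice and the water cages 4 and 5. Separation by chance is more frequent with only 2 mice in a cage, so the shares are not comparable, and a cage effect was not tested. Of the 31-base windows of the listed Itga3 transcript, 1.12% are its own.

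Itgav, the alpha-v subunit that pairs with beta-6 among others, lies at chr2:83724397-83806916 (plus strand). Its TPM ran from 1.47 to 4.35 in water controls, from 0.00 to 5.40 in water knockout-labelled mice, from 3.55 to 6.47 in DSS controls and from 2.99 to 4.77 in DSS knockout-labelled mice. The groups overlapped, with differences of 0.21 ± 0.36 (SE) in controls and 0.16 ± 0.52 in knockout-labelled mice. The same water mouse, knockout 2, was at the bottom for both Itgav and Itga6. The listed Itgav transcript, Itgav-201, shares nearly all of its sequence with other Itgav transcripts, since 1.96% of its windows are its own.

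Itgb1, the shared partner of most alpha subunits here, lies at chr8:128685654-128733200 (plus strand) and was the most abundant member in all 4 groups. It measured 67.6, 67.0, 70.8 and 71.3 TPM in water controls and 59.4, 51.4, 58.4, 76.4 and 62.7 TPM in water knockout-labelled mice. After DSS it measured 115, 111 and 77.9 TPM in controls and 99.7, 122, 124 and 98.5 TPM in knockout-labelled mice. As deposited, every DSS mouse lay above every water mouse. After rescaling, the difference was 0.17 ± 0.22 (SE) in controls and 0.49 ± 0.13 in knockout-labelled mice, and the groups overlapped. As deposited, the values of all genes were shifted by a median of 0.32 in controls and 0.31 in knockout-labelled mice, so the deposited difference of Itgb1 in controls, 0.52, is read against that shift.

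Itgb6, the beta-6 subunit, is restricted to epithelium and is known to be induced in injured epithelia. It lies at chr2:60598292-60722643 (minus strand). It measured 2.63, 2.73, 3.47 and 3.54 TPM in water controls and 3.46, 1.94, 2.45, 3.31 and 2.19 TPM in water knockout-labelled mice. After DSS it measured 5.85, 5.58 and 3.79 TPM in controls and 6.06, 4.62, 5.62 and 6.78 TPM in knockout-labelled mice. The rescaled difference was 0.60 ± 0.16 (SE) in knockout-labelled mice, without overlap, and 0.28 ± 0.21 in controls, where DSS control 3 fell into the water range. Without that mouse, which was also the lowest DSS mouse for Itga2, Itga6 and Itgb1, 5 members did not overlap between the controls. The share of all genes higher without overlap then also grew, to 25.0%.

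Itgb4, the hemidesmosomal beta-4 subunit, lies at chr11:115974709-116008412 (plus strand). It ranged from 3.43 to 6.20 TPM in water controls, from 2.75 to 7.62 TPM in water knockout-labelled mice, from 3.69 to 9.02 TPM in DSS controls and from 2.97 to 7.79 TPM in DSS knockout-labelled mice. Its differences of 0.06 ± 0.33 (SE) and -0.31 ± 0.34 were within the spread. Its partner Itga6 had a median of 278% of Itgb4 TPM in water controls and 542% in DSS controls, and of 127% and 730% in knockout-labelled mice. The control ranges overlapped, from 92.8% to 316% in water and from 189% to 610% after DSS. The knockout-labelled ranges did not meet, from 0.0014% to 303% in water, where the lowest was water knockout 2, and from 567% to 1054% after DSS. The listed Itgb4 transcripts hold almost no sequence of their own, at most 0.702% of windows.

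**Figure D2:**
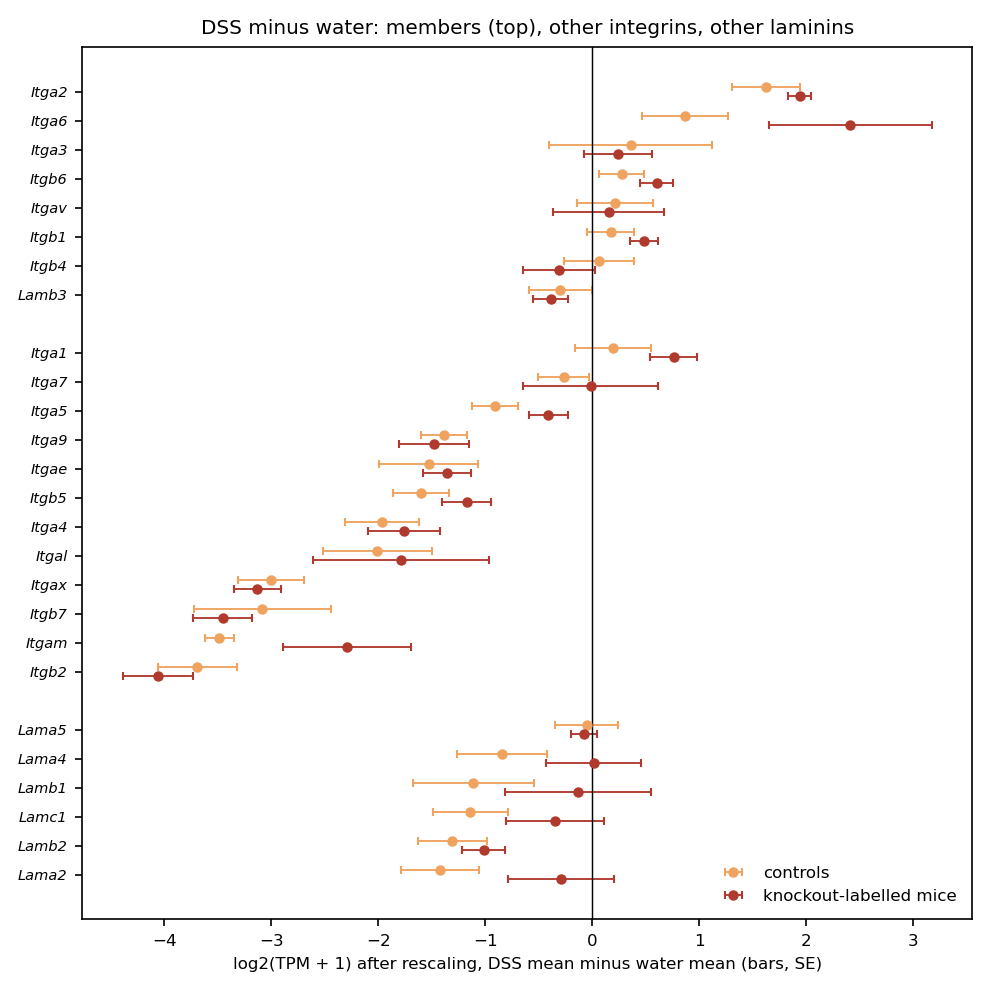
Difference between the DSS and water means of rescaled log2(TPM + 1) (horizontal axis) for the 8 members measured (top), 12 other integrin subunits (middle) and 6 of the 7 other laminin chains measured (bottom), with controls in orange, knockout-labelled mice in red and SE as bars. Itga2 and Itga6 are the members farthest to the right, and Itgb2 is the integrin farthest to the left at -3.69 in controls.

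Ratios between partner genes within a library do not depend on how tables were scaled, but they cover the listed transcripts only. Itga2 stood at a median of 6.40% of Itgb1 TPM in water controls, with a range from 5.72% to 6.69%, and at 18.6% in DSS controls, from 17.1% to 23.7%. In knockout-labelled mice the medians were 5.99% and 19.98%, with ranges from 5.33% to 8.39% in water and from 18.2% to 23.7% after DSS. Every DSS mouse thus had more Itga2 per Itgb1 than any water mouse, with a wide gap between the ranges. Itga6 stood at 16.8% of Itgb1 in water controls and 21.9% in DSS controls, where ranges of 8.13% to 17.6% and 19.6% to 31.9% did not meet. For Itga3 against Itgb1 the ranges overlapped in both genotypes. Itgav stood at a median of 130% of Itgb6 in water controls and 96.5% in DSS controls, with overlapping ranges.

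**Figure D3:**
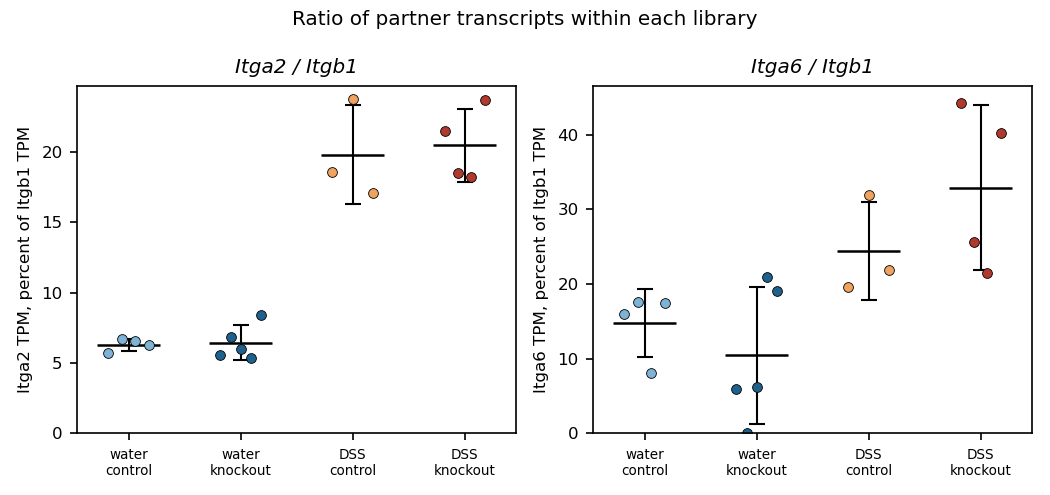
TPM of Itga2 and Itga6 as a percentage of Itgb1 TPM in the same library (vertical axes, percent), with 1 point per mouse and the group mean and SD as lines. The Itga2 ratio lies between 5.33% and 8.39% in all water mice and between 17.1% and 23.7% in all DSS mice.

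Lamb3, the beta-3 chain found only in laminin-332, lies at chr1:193207699-193343878 (plus strand) and was among the 3 most abundant members in each group. Summed over its 3 listed transcripts it measured 24.8, 25.4, 42.1 and 19.8 TPM in water controls and 31.4, 21.6, 20.1, 26.2 and 22.6 TPM in water knockout-labelled mice. After DSS it measured 30.9, 20.4 and 34.2 TPM in controls and 30.4, 20.8, 21.0 and 22.4 TPM in knockout-labelled mice. The groups overlapped, and the rescaled differences were -0.30 ± 0.29 (SE) in controls and -0.39 ± 0.16 in knockout-labelled mice.

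The split of Lamb3 between its transcripts varied from mouse to mouse, and its ranges overlapped between treatments. In water Lamb3-201 held under 1% of Lamb3 TPM in 8 of 9 mice, with 43.8% in control 1. After DSS it held under 1% in 1 of 7 mice, knockout 4, and otherwise between 24.4% and 93.1%. This share was not tested, and it rests on little sequence: 3.65% of the windows of Lamb3-201 and 0.703% of those of Lamb3-202 occur in no other Lamb3 transcript. The 2 promoter windows of Lamb3 (RefSeq, GRCm38.p6, plus strand) are shown with the same letters in capitals. These windows are listed by gene, so the transcript numbers in their headings are an assignment that was not tested. The end of the first window overlaps the beginning of the second.
Lamb3 start of 201, chr1:193301744-193302043: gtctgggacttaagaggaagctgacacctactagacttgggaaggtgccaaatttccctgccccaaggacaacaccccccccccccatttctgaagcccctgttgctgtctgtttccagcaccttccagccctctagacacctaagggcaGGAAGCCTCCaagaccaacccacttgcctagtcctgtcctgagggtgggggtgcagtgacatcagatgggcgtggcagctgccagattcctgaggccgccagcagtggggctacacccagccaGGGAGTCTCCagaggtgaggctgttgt
Lamb3 start of 202, chr1:193301993-193302292: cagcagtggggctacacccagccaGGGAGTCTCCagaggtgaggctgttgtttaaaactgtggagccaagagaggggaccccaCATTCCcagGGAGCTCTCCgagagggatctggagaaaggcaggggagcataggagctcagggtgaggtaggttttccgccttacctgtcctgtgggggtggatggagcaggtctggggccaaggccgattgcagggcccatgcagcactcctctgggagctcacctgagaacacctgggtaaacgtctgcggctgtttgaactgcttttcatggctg
Each window holds 2 kappaB matches, of which 1 lies in the shared bases, and the second window holds 1 TEAD match on the minus strand. Neither holds AP-1 letters or a GC box.

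**Figure D4:**
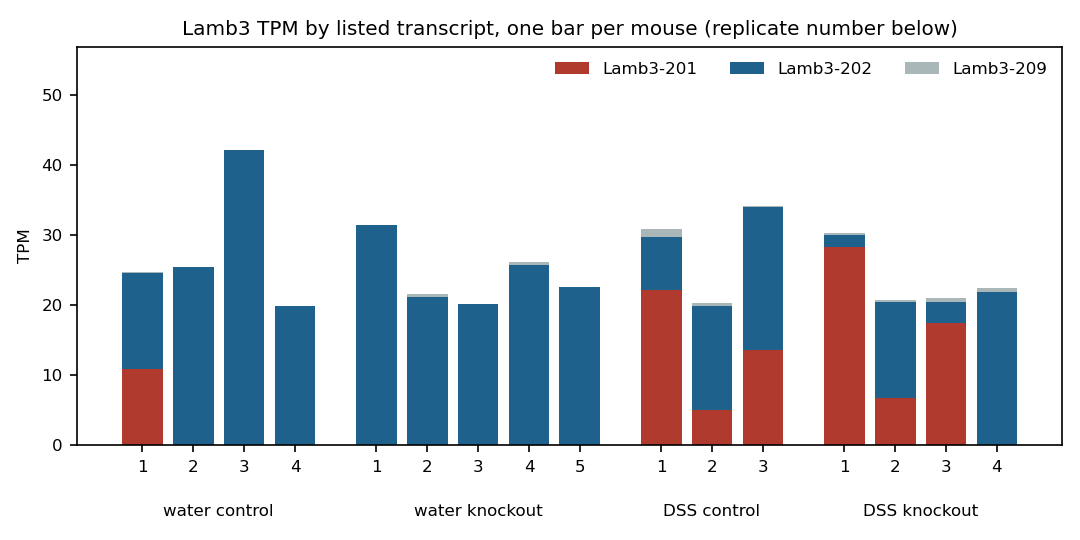
Lamb3 TPM (vertical axis) of every mouse, stacked by its 3 listed transcripts, with mice ordered by group and replicate number. The bars reach similar heights in all groups, and Lamb3-201 (red) appears in 1 water mouse and in 6 of the 7 DSS mice.

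Lama3, the alpha-3 chain of laminin-332, lies at chr18:12333819-12583013 (plus strand). By its 1 listed transcript it was the least abundant member in every group. Its means were 1.28 ± 0.776 (SD, n = 4) and 1.08 ± 0.720 (n = 5) TPM in water controls and knockout-labelled mice, and 0.845 ± 0.732 (n = 3) and 0.515 ± 0.242 (n = 4) TPM after DSS. Only the transcript Lama3-201 of 10548 bases is listed, 1 of 2 that GENCODE gives the gene, and 49.3% of its 31-base windows are its own. The other transcript has no value here, so the level of the gene as a whole is not known. Lama3 stood at a median of 4.25% of Lamb3 TPM in water controls and 2.40% in DSS controls, with overlapping ranges.

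The order of the members by mean TPM of their listed transcripts differed between the treatments, in both genotypes for Itga2, Itga3 and Itga6 among others. In water controls Itgb1 at 69.2 ± 2.17 (SD, n = 4) TPM was followed by Lamb3 at 28.03 ± 9.73, Itga3 at 12.4 ± 8.88 and Itga6 at 10.2 ± 3.05. Itgb4, Itga2, Itgav and Itgb6 followed between 4.59 and 3.09 TPM, and Lama3 was last. Only Itgb1 from Lamb3 and Itgb6 from Lama3 were neighbours without overlap. In DSS controls Itga2, at 20.3 ± 6.57 (n = 3) TPM, stood between Itga6 and Itga3, and in DSS knockout-labelled mice it stood between Lamb3 and Itga3 at 22.5 ± 0.790 (n = 4). Itga3 followed Lamb3 directly in both water groups and came after Itga6 and Itga2 in both DSS groups. In DSS knockout-labelled mice Itga6, at 35.5 ± 7.90 TPM, came before Lamb3, at 23.6 ± 4.56 TPM, with overlapping values. Itgb6, which followed Itgb4, Itga2 and Itgav in water knockout-labelled mice, came before Itgb4 and Itgav in DSS knockout-labelled mice, where Itgb6 and Itgb4 overlapped.

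Genotype was then compared within each treatment, the comparison the study was designed for. By limma on log2(TPM + 1), none of the 8 members tested after DSS passed an adjusted p of 0.05, where 0.00918% of 10899 genes did, and none of the 9 in water, where 0.00905% of 11046 genes did. No member had an unadjusted limma p under 0.05 in either. In no member did the genotypes separate without overlap, against 3.68% of genes after DSS and 1.55% in water. Itga6 is given first, and the size of its differences, though not their direction, depended on single mice. After DSS its mean was 25.0 ± 9.42 (SD, n = 3) TPM in controls and 35.5 ± 7.90 (n = 4) in knockout-labelled mice, a log2 difference of 0.52 ± 0.27 (limma SE, adjusted p = 1.00). Leaving out single mice gave 0.29 (without DSS control 3) to 0.80 (without DSS control 2), and without DSS control 3 the difference of Itga3 was wider, at 0.84. With array quality weights over all DSS mice Itga3 was also wider, at 0.65 against 0.35 for Itga6. In water the same gene averaged 10.2 ± 3.05 (n = 4) and 7.03 ± 6.68 (n = 5) TPM, a difference of -1.003 ± 0.74 (limma adjusted p = 0.865). There, leaving out single mice gave -1.42 to -0.39, the latter without water knockout 2, where Itga3 differed by 0.43, and a pseudocount of 0.1 gave -1.70. Within cages the DSS difference was 1.33 in the cage with 1 mouse of each genotype and 0.18 in the other. In water it was -2.07 in the cage of males and -0.38 in the cage of females.

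For the collagen receptor pair, Itga2 differed between genotypes by 0.19 ± 0.21 (limma SE, adjusted p = 1.00) after DSS and by -0.13 ± 0.15 (limma adjusted p = 0.887) in water. Itgb1 differed by 0.15 ± 0.17 and -0.17 ± 0.11. These 2 genes had among the smallest errors of the members, so their values bound a genotype difference more tightly than those of Itga3, with errors of 0.46 after DSS and 0.47 in water. Exact two-sided permutation of TPM gave lowest p-values of 0.171 for Itga6 after DSS and 0.175 for Itgb1 in water, where the smallest values the designs allow are 0.0286 and 0.00794. The change of genotype difference between treatments was tested in the same way, and none of the 8 members passed, where 0.00889% of 11247 genes did. It was largest for Itga6, at 1.53 ± 0.93 (limma SE, adjusted p = 0.949), and 0.92 without water knockout 2. These tests do not show that the genotypes were alike.

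**Figure D5:**
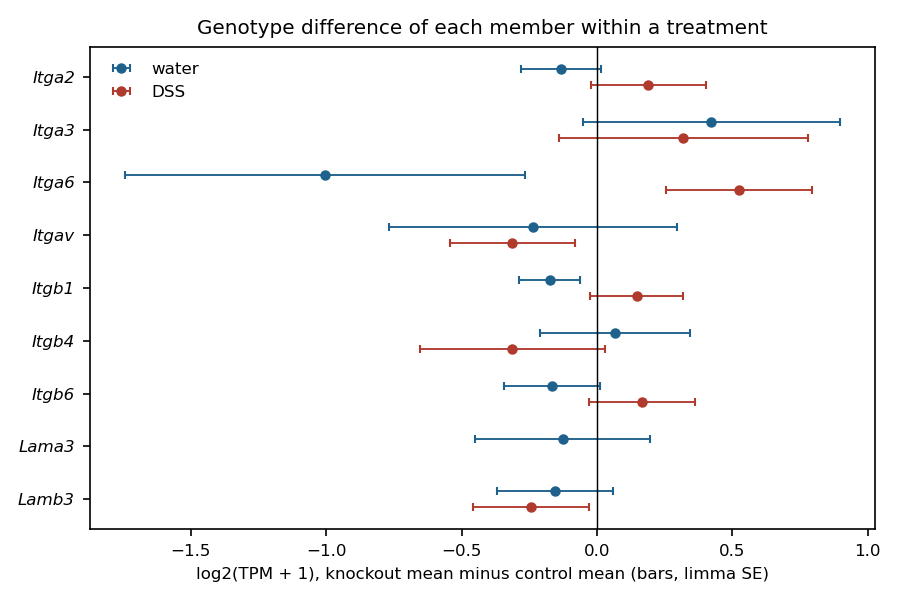
Difference in mean log2(TPM + 1) between knockout-labelled mice and controls (horizontal axis) for each member within water (blue) and within DSS (red), with the limma SE as bars; Lama3 after DSS was below the level tested. The points lie between -1.003 and 0.52, both for Itga6.

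Other genes of the same machinery were read from lists by count. Of 12 other integrin subunits measured, 10 were lower without overlap in DSS controls than in water controls and none was higher, with a median difference of -1.78, where 13.9% of all genes were lower and 10.7% higher. In knockout-labelled mice 8 were lower and 1, Itga1, was higher, with a median of -1.62, where 17.8% of all genes were lower and 17.4% higher. The same shares stand behind each rescaled count below, and as deposited 8.12% of all genes were lower and 30.99% higher in controls, and 10.1% and 31.4% in knockout-labelled mice. The 3 with the largest differences in controls were subunits of leukocyte integrins: Itgb2 at -3.69 ± 0.37 (SE), Itgam at -3.49 ± 0.14 and Itgb7 at -3.09 ± 0.64. They moved with the leukocyte markers given above, of which 10 of 12 measured were lower in controls, and Itgam is itself 1 of those markers. Their part in these values was not tested. Itgb5, the most abundant of these integrins, went from between 17.5 and 21.7 TPM in water controls to between 4.92 and 10.6 TPM in DSS controls, a difference of -1.60 ± 0.26 (SE). Beta-5 is another partner of alpha-v, and its level was lower after DSS without overlap in both genotypes, whereas that of Itgb6 was not lower in either.

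Of 7 other laminin chains measured, 3 were lower in DSS controls and none was higher, with a median of -1.11, against 13.9% of all genes lower, and in knockout-labelled mice 1 was lower, with a median of -0.13, against 17.8%. As deposited, 1 was higher and 2 were lower in controls. In knockout-labelled mice 1 was higher and none lower as deposited, with a median of 0.009. Lama2 differed by -1.43 ± 0.36 (SE), Lamb2 by -1.31 ± 0.32 and Lamc1 by -1.14 ± 0.35 in controls. Fibroblast markers moved with them: 6 of 10 were lower in the same controls, and 3 as deposited. In knockout-labelled mice none of the 10 fibroblast markers was lower without overlap, with a rescaled median of -0.82. Lama2 is known as a chain of muscle and mesenchymal basement membranes, and the part of such cells in these values was not tested. Of the hemidesmosome partners, Cd151, a tetraspanin bound to laminin-binding integrins, measured between 37.1 and 46.7 TPM in water controls and between 36.1 and 60.0 TPM in DSS controls, with a rescaled difference of -0.12 ± 0.19 (SE). In knockout-labelled mice the difference was -0.39 ± 0.06 without overlap, and the groups overlapped on the values as deposited. Plec, the plakin that links beta-4 to keratins, differed by -0.13 ± 0.54 in controls, and Col17a1, a hemidesmosomal collagen, was under 0.263 TPM in every mouse. Among 22 integrin adaptors, 2 were higher and 7 lower in controls, with a median of -0.41, while as deposited 4 were higher and 4 lower. In knockout-labelled mice 3 adaptors were higher and 5 lower, with a median of -0.10, and as deposited 6 were higher and 2 lower, with a median of 0.20. Actn4, the most abundant adaptor, measured between 64.5 and 105 TPM in water controls and between 91.0 and 111 TPM in DSS controls as deposited, and after rescaling the groups overlapped, with differences of -0.02 ± 0.17 (SE) in controls and 0.06 ± 0.07 in knockout-labelled mice. Among 12 matrix ligands and latent TGF-beta genes, 3 were lower in controls and none was higher, with a median of -0.87, and Col3a1 was the most abundant. As deposited 1 was lower, and in knockout-labelled mice 1 was lower on the rescaled values, with a median of -0.30. The list shares collagen genes with the fibroblast markers, whose sums are given above, and the part of such cells was not tested. No gene of these lists was called by genotype in either treatment by limma. At an unadjusted p under 0.05, limma gave 1 of 7 other integrins after DSS, Itgam, and 0 of 14 in water, and 0 of 6 other laminin chains after DSS and 1 of 7 in water, Lama2. In water it also gave 1 of 2 hemidesmosome partners, Plec, 2 of 23 adaptors, Fermt2 and Parva, and 2 of 13 matrix genes, Col1a1 and Nid1, and after DSS none of these 3 lists. These water genes, like Lama2, were all lower in knockout-labelled mice. Fibroblast markers in water went the same way, with a median difference of -0.58 and 2 of 10 at that threshold. Their part in these values was not tested. Over all genes the same threshold took 289 of 10899 after DSS and 583 of 11046 in water.

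Deviations of single mice from their group means showed which genes varied together, as a description over 16 mice that share libraries. Itga2 deviated most like Arhgap5 (r = 0.94), and among members most like Itgb1 (r = 0.63). Itga6 deviated most like Itgav (r = 0.91), and like its partners Itgb1 with r = 0.53 and Itgb4 with r = -0.10. The value for Itga6 and Itgav was 0.73 without water knockout 2. Lamb3 deviated most like Myo1a (r = 0.89), and like Lama3 with r = 0.32. Itga3 was most like Shb (0.92), Itgav like Alg10b (0.92), Itgb1 like Arhgap42 (0.91), Itgb4 like Larp1 (0.86) and Itgb6 like Plek (0.88). Each of these genes is the highest of 10159 searched, so the values mark the end of a long list and say nothing of shared control.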

How the data were processed

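EpCAM+ cells from 16 mice were profiled by stranded polyA RNA-seq, and the authors deposited TPM per transcript in a table for each treatment. The submitters' processing notes name kallisto, sleuth and mm10, and the study's list of resources gives a version for kallisto/sleuth. The tables list principal transcripts only, so other isoforms are not in a gene's sum. They also hold the authors' test statistics, p-values, q-values, mean log estimated counts and log ratios for genotype, which were not used. Each table has 29373 lines, of which 385 repeat others and were dropped, leaving 28988 transcripts, and 0 columns lacked a matching sample. TPM were summed by gene symbol. Genotype was tested within a table with limma 3.58.1 (R 4.3.3) on log2(TPM + 1), with a variance trend, for genes averaging 1 TPM or more over the mice compared, with Benjamini-Hochberg adjustment, and checked on simulated data. DSS and water levels were set side by side after one median-of-ratios rescaling over 9936 genes, without a test. Transcript positions and windows came from GENCODE M21 (GRCm38). The members, the other lists and the alternatives were chosen with earlier results of these data known. All members are named, with Tnfrsf1b, and from each list the most abundant gene and, for integrins, laminins and hemidesmosome partners, the 3 with the largest difference in controls. The alternatives were other pseudocounts, filters, scalings, weights, a cage term, a replicate block and leaving out each mouse. Genes of other marker lists are named only where a value touches a result, and some list genes that the rule names are not reported here. P-values measure the spread between mice, which shared cages.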

Additional observations from a re-analysis of the deposited data

Results flagged for a closer look

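One value stood far from its group. Itgav in water control 3 was at 1.47 TPM, while the other 3 water controls lay between 3.88 and 4.35 TPM, and the gap was 0.837 of the group's range. Among the 27 groups of 4 or 5 mice examined, chance alone marks about 1 in 20.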

How the results depend on the processing

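No member was called by genotype under any setting: over 444 refitted member values the lowest limma adjusted p was 0.698, with 418 in the same direction and 26 opposite. Opposite values outside the leave-one-out fits were those of Itgb4 in water with a replicate block (-0.030), and of the genotype difference after DSS minus that in water for Itga3 with array quality weights (0.14) and for Itgav with a pseudocount of 0.1 (0.39). The cause was not tested.

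Over all genes, the 1 gene called after DSS became 0 with a pseudocount of 0.1, without a filter and with the replicate block. In water the 1 call became 0 with a pseudocount of 0.1, at 5 TPM or more and with the block, 4 without a filter and 3 with all 4 groups in one fit. The difference of differences went from 1 to 0 with the block. Leaving out single mice gave 0 to 3 calls after DSS, 1 to 2 in water and 1 to 3 for the difference. The shared replicate numbers do not pair the mice: same-numbered mice correlated between -0.20 and -0.03 after DSS and between -0.08 and 0.09 in water.

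Members not overlapping between DSS and water in controls numbered 4 as deposited (Itgb1 and Itgb6 added), 1 with epithelial scaling (Itga2) and 2 to 5 leaving out single mice, against 2 on the main scale. Over all genes, 30.99% were higher without overlap as deposited and 12.9% with epithelial scaling. In knockout-labelled mice they numbered 3, 4 as deposited and by percentile rank, where 31.4% and 25.2% of all genes were higher, and 3 to 4 leaving out single mice, with Itgb1 added as higher without water knockout 4 and Lamb3 as lower without DSS knockout 1. Settings added after seeing the data, female mice only and factors without genes of other cell types, gave 2 and 3, and with females only 18.4% and 21.8% of all genes were higher.

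Leaving out single mice turned the sign of uncalled genotype differences. After DSS the values ran from -0.074 to 0.39 for Itga2, from -0.0096 to 0.84 for Itga3 and from -0.030 to 0.25 for Itgb1. In water they ran from -0.10 to 0.82 for Itga3, -0.50 to 0.23 for Itgav, -0.080 to 0.22 for Itgb4, -0.34 to 0.045 for Lama3 and -0.30 to 0.052 for Lamb3. For the difference of differences they ran from -0.51 to 0.42 for Itga3, -0.54 to 0.19 for Itgav and -0.30 to 0.055 for Lamb3. Read depth is not given, so values under 1 TPM, as for Lama3, have unknown precision.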
